A study of Mus musculus with 12 samples.

Results

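The 35 genes described here encode the enzymes that build cholesterol and fatty acids in mouse embryonic stem cells (mESCs), together with proteins that regulate these pathways or move sterol. They were chosen by symbol as members of the pathway governed by the sterol regulatory element-binding proteins (SREBPs), and all 35 were among the 35976 genes of the deposited table. Of these, 19 encode sterol enzymes (including Ggps1, which branches off to geranylgeranyl diphosphate), 10 fatty acid enzymes, and 6 regulators or transporters. All 35 passed the filter on low values, a mean of at least 10 normalised counts over the 12 libraries, which left 15341 genes tested.

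RNA was sequenced from wild-type (WT) cells, PROSER1 knockout (KO) cells and KO cells that re-express PROSER1 (KO+Rescue), each as mESCs and after 2 days in N2B27, with 2 libraries in each of the 6 groups. The paper derived its mESC lines from blastocysts of Tet2 fl/fl mice, so WT here means without an edit of Proser1. PROSER1 is a protein that works with TET enzymes, the oxidases of methylated cytosine. All groups came from mESCs grown on gelatin with 8.3% fetal bovine serum, 4.1% serum replacement, 3 µM of the GSK3 inhibitor CHIR99021, 1 µM of the MEK inhibitor PD0325901 and 100 ng/mL LIF, whereas the methods list neither serum, LIF nor inhibitors for N2B27, a medium with N-2 and B-27 supplements in which mESCs turn towards a neural fate. The change of stage and the change of medium cannot be told apart. The KO line was a clone edited with a CRISPR guide to exon 1, and KO+Rescue was made from KO cells with a PiggyBac transposon carrying Proser1 with a FLAG tag, selected with blasticidin and subcloned, so a difference between lines cannot be told apart from a difference between clones. The column names give WT and the stage, but mark the other lines only by a code with or without the letter R; reading these as KO+Rescue and KO is an inference. Replicates are named by the letters A and B of the columns. The labels name them as biological replicates but do not tell whether they were grown separately, so the spread behind each p-value may be technical and covers no more than these libraries.

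Cells sense cholesterol in the endoplasmic reticulum. When it is scarce, SCAP escorts the SREBPs to the Golgi, where they are cut and released to the nucleus; when it is plentiful, INSIG proteins hold SCAP and its cargo back. SREBP-2, from Srebf2, favours the genes of sterol synthesis, and SREBP-1, from Srebf1, those of fatty acid synthesis. At their target promoters the SREBPs act with the factors NF-Y, which binds CCAAT boxes, and SP1, which binds GC boxes.

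Promoter windows from RefSeq (GRCm38.p6, 250 bases before to 50 bases after an annotated start) were found for 28 of the 35 genes (all but Fads1, Fdft1, Fdps, Scd1, Scd2, Sqle and Stard4) and searched on both strands for 3 strings. CCAAT was found in the windows of 15 of 16 sterol genes, 4 of 7 fatty acid genes and 3 of 5 regulators, against 41.1% of all 27025 genes with a window. GGGCGG was found in 14 of 16, 4 of 7 and 5 of 5, against 38.2% of all genes. The string TCACNCCAC, a core of sterol response elements, was found only in the window of Hmgcs1, against 1.44% of all genes. These counts describe letters in a window and were not tested. The windows of 5 genes were chosen, written 5′ to 3′ on the strand of the gene, with matches to the 3 strings or their reverse complements in capitals. Hmgcs1 makes HMG-CoA and holds all 3 strings, Msmo1 and Fasn stand for sterol and fatty acid genes that rose at day 2, and Ebp and Elovl6 for the enzymes that fell. Fasn holds 3 CCAAT matches, 2 of which overlap on opposite strands.
Hmgcs1, chr13:119690101-119690400, plus strand: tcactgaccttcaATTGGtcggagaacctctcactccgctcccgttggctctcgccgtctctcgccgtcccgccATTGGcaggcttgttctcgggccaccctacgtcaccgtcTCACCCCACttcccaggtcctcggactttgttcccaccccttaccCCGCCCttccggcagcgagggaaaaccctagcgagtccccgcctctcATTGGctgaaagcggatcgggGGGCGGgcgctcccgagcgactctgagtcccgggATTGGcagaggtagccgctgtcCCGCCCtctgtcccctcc
Msmo1, chr8:64733529-64733828, minus strand: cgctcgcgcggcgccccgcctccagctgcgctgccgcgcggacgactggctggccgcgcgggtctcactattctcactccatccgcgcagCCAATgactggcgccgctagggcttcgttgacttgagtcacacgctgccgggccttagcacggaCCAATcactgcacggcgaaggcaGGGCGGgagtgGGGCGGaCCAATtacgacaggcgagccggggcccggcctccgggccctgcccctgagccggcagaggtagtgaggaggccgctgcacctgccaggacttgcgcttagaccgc
Fasn, chr11:120824498-120824797, minus strand: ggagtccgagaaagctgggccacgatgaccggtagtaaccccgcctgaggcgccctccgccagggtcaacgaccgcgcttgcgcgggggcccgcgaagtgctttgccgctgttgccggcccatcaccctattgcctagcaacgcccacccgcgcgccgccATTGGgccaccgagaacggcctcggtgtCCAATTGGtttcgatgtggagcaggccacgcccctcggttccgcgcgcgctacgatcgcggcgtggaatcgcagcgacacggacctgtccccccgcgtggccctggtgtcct
Ebp, chrX:8193463-8193762, minus strand: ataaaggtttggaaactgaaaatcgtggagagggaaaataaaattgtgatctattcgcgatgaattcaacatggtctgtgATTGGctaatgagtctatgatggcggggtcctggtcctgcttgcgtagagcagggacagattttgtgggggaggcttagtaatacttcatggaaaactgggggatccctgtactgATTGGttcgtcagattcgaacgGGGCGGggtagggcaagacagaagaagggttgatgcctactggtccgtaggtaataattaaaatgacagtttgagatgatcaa
Elovl6, chr3:129532136-129532435, plus strand: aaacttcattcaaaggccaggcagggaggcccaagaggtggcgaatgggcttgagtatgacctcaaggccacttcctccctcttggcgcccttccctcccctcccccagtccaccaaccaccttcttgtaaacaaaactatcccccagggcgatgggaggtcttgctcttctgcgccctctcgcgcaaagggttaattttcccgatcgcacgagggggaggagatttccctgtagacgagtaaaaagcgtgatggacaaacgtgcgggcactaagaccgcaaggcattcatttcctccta
Ebp, whose RNA fell at day 2, held 2 CCAAT matches and 1 GGGCGG match in its window, and Elovl6, which also fell, held none of the 3 strings. Hmgcs1 and Msmo1, which rose, held 4 and 3 CCAAT matches. Acaca rose too and, like Elovl6, held none of the 3 strings. Fads2 and Acat2, which also rose, held no CCAAT match, whereas Ggps1, which was called in no genotype, held 3. Whether the number of matches goes with the direction of change was not tested.

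The libraries held 38634668 to 66450803 assigned reads, and the 35 genes had 39 to 61037 reads each in a library. The naive and general pluripotency markers were present in every mESC library. Their summed normalised count over 10 genes was 174589 to 190284 in WT, 216588 to 226294 in KO and 213777 to 232317 in KO+Rescue. The median log2 change of these genes in KO against WT mESCs was -0.16, and none was called. All 10 were called lower at day 2 in each genotype. Markers of other cell types moved as well. Over 8 neuroectoderm genes the sum was 481 to 713 in mESCs and 5983 to 10933 at day 2, and over 9 visceral endoderm genes 70.1 to 122 and 197 to 329. Over 9 fibroblast and smooth muscle genes it was 867 to 890 in WT and 1937 to 2342 in KO mESCs, and 2334 to 3026 and 4941 to 5497 at day 2; it was led by Tagln, while Acta2 had 26.9 ± 7.94 in WT and 250 ± 28.3 in KO mESCs (SD, n = 2 each). Thy1 went the other way, from 339 ± 31.9 to 114 ± 4.98, a 2.95-fold fall, and Col1a1 and Col1a2, the collagens that define fibroblasts, had means of 10.7 to 26.9 in both. In KO+Rescue the sum was 1407 to 1622 in mESCs and 5324 to 5847 at day 2. The part of these cells in the results was not tested, and in bulk RNA fewer cells of a type and less RNA per cell cannot be told apart. Proser1 had a normalised count of 889 and 550 in WT mESCs, against 576 and 502 in the KO line and 2828 and 3090 after re-expression. At day 2 the counts were 829 and 685, 872 and 1067, and 3041 and 2994 in the same order, so its RNA was present in KO at both stages and does not check the loss of the protein.

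WT mESC libraries A and B stood apart from each other in the genes described here, and several comparisons with WT rest on that pair. The 10 fatty acid enzymes took 0.113% to 0.159% of the reads of this pair, against 0.0747% to 0.0985% in the other 4 mESC libraries, while the 19 sterol enzymes took 0.144% to 0.15% against 0.124% to 0.147%. Ribosomal protein genes took 11.9% to 14.9% of the reads in WT mESCs and 16.4% to 22.2% in the other 4 mESC libraries. Their part in the results was not tested. WT day 2 libraries A and B also stood apart, and the comparisons with WT at day 2 rest on them. Of their reads, fatty acid enzymes took 0.359% and 0.254%, sterol enzymes 0.429% and 0.369%, and ribosomal protein genes 11.5% and 14.7%. The library kit kept the strand, but the strand setting of the counting is not given, so a gene whose row overlaps another may share reads with it.

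The stage was compared first. From mESC to day 2, cells of all 3 genotypes raised nearly the whole of both pathways: in each genotype 30 of the 35 genes rose, while 3 fell in WT and KO and 4 in KO+Rescue (limma on the log2 of the normalised count plus 1, adjusted p under 0.05 by Benjamini and Hochberg over all genes tested). The share of all genes tested that was called higher was 26.6% for WT, 31.4% for KO and 29.2% for KO+Rescue, and 25.3%, 28.7% and 29.1% were called lower. The median log2 change in WT was 1.35 for sterol enzymes, 1.19 for fatty acid enzymes and 1.01 for regulators and transporters, against -0.02 for all genes. In KO the medians were 1.15, 1.41 and 1.12, and in KO+Rescue 0.88, 1.26 and 0.71, against 0.02 and -0.03 for all genes. Transcript length moved with these contrasts: over all genes with a length, Spearman's rho of the change with length was 0.16 in WT, 0.23 in KO, and 0.27 after re-expression, given as a description across genes. With a trend of transcript length and GC content removed from each library, the medians of the sterol enzymes were 1.23, 1 and 0.94 (WT, KO, KO+Rescue), those of the fatty acid enzymes 1.06, 0.7 and 0.8, and those of the regulators and transporters 0.29, 0.23 and 0.12. As a share of all reads, the sterol enzymes took 0.124% to 0.15% in the 6 mESC libraries and 0.3% to 0.429% at day 2, and the fatty acid enzymes 0.0747% to 0.159% and 0.218% to 0.359%, with no overlap between the stages in either case.

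**Figure D1:**
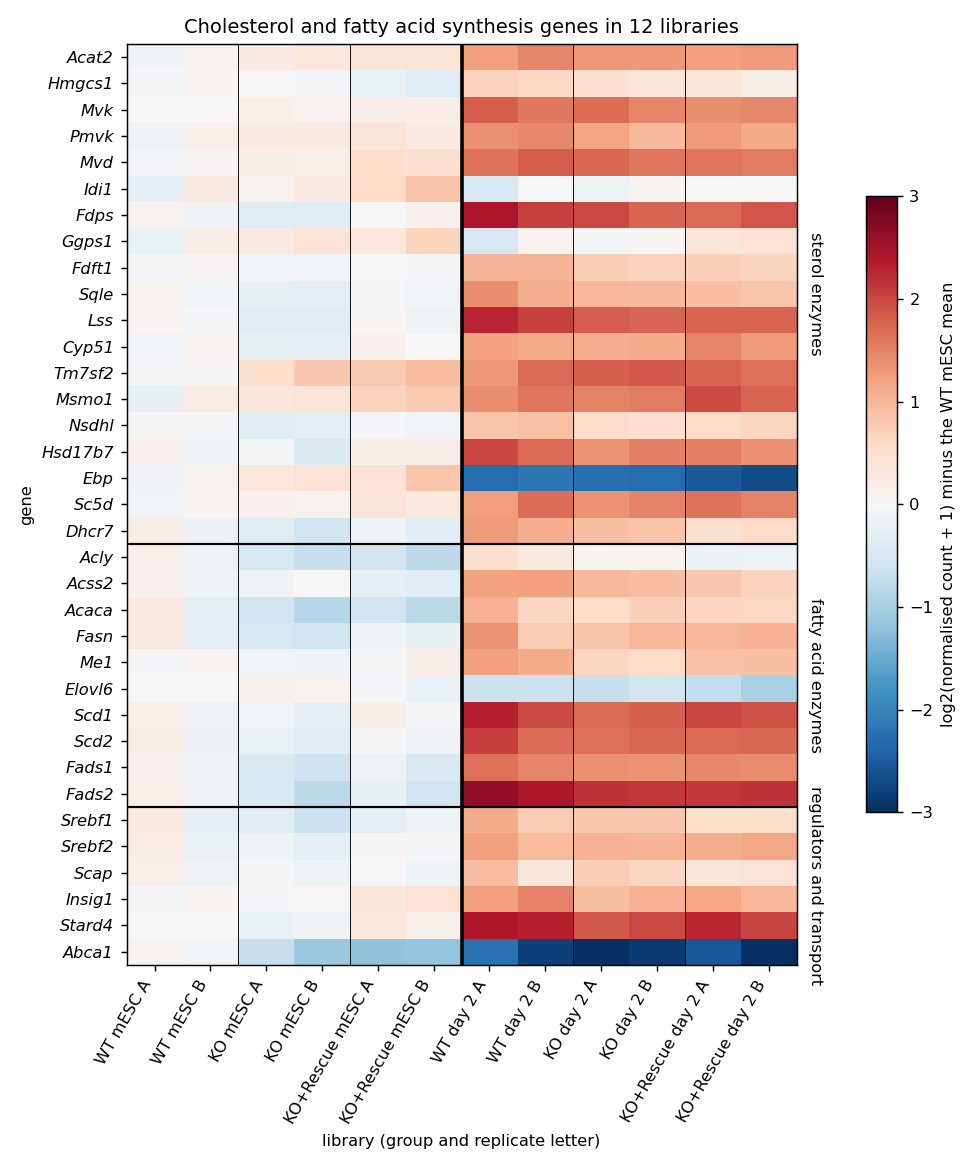
Each cell gives the log2 of the normalised count plus 1 of a gene (rows) in a library (columns), minus the mean of the 2 WT mESC libraries, with red for higher and blue for lower; the thick line parts mESC from day 2 and the horizontal lines part sterol enzymes, fatty acid enzymes, and regulators and transport. The day 2 side is red for most genes, with Ebp, Elovl6 and Abca1 in blue and Idi1 and Ggps1 pale, and Acly turns from red in WT to pale blue in KO+Rescue, below the WT mESC mean.

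The early steps of the sterol pathway join acetyl units into mevalonate and then isoprenoids. Fdps, which makes farnesyl diphosphate, had 7304 and 6369 normalised counts in WT mESCs and 36695 and 28086 at day 2. It had 5330 and 5177 in KO mESCs against 26766 and 23036, and 6849 and 7494 in KO+Rescue mESCs against 22025 and 25035. The stages did not overlap in any genotype, and the fold was 4.71 for WT, 4.73 for KO and 3.28 for KO+Rescue (log2 2.23, 2.24 and 1.71, each ± 0.15 SE, with limma adjusted p of 1.28e-07, 7.91e-08 and 8.99e-07). Mvd, which decarboxylates mevalonate diphosphate, had 2290 and 2381 in WT mESCs and 7255 and 8206 at day 2, a fold of 3.3 (log2 1.72 ± 0.11 SE, limma adjusted p 8.6e-08). Mvk, the mevalonate kinase, had 895 and 897, then 3176 and 2677, a fold of 3.25. In KO and KO+Rescue the folds of Mvd were 2.83 and 2.09 and those of Mvk 2.69 and 2.34. Hmgcs1, which makes HMG-CoA, rose least among the sterol enzymes called higher in WT, with a fold of 1.58. Its fold was 1.36 in KO and 1.48 in KO+Rescue. Acat2, the acetoacetyl-CoA thiolase, and Pmvk, the phosphomevalonate kinase, rose 2.55-fold and 2.64-fold in WT.

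A pair of isoprenoid genes did not follow, and their values are given for that reason, a choice made after they were seen. Idi1, which isomerises isopentenyl diphosphate just before the step of Fdps, had 4532 and 6633 in WT mESCs and 3971 and 5561 at day 2, and 5913 and 6468 in KO mESCs against 4916 and 5672. Its log2 change of -0.22 ± 0.19 in WT and -0.23 ± 0.19 in KO did not pass the test. In KO+Rescue, where it had 8110 and 9953 in mESCs and 5536 and 5511 at day 2, it fell 1.63-fold (limma adjusted p 0.00724), a call lost with equal library totals and without KO+Rescue mESC replicate B. Ggps1, which makes geranylgeranyl diphosphate for protein prenylation, changed by -0.2 ± 0.19, -0.34 ± 0.19 and -0.1 ± 0.19 on the log2 scale and was called in no genotype.

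The later steps form squalene, close it into the sterol rings and trim lanosterol to cholesterol. Lss, which makes lanosterol, had 2452 and 2255 in WT mESCs and 11458 and 9709 at day 2, 1871 and 1861 against 8348 and 7886 in KO, and 2465 and 2109 against 7858 and 7891 in KO+Rescue. Every day 2 library lay far above every mESC library, with folds of 4.48, 4.35 and 3.45 (log2 2.16, 2.12 and 1.79, each ± 0.12 SE). Hsd17b7, a ketoreductase in the removal of the methyl groups at carbon 4, had 421 and 353 in WT mESCs and 1551 and 1254 at day 2, a fold of 3.61. Sqle, the squalene epoxidase, and Fdft1, the squalene synthase, whose row overlaps Ctsb, rose 2.36-fold and 2.02-fold in WT. Cyp51, Tm7sf2, Msmo1, Nsdhl, Sc5d and Dhcr7, other enzymes of these later steps, rose 1.8-fold to 2.84-fold in WT.

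Ebp ran against the rest of its pathway. It encodes the isomerase that shifts the double bond from carbon 8 to carbon 7 of the sterol ring, between Hsd17b7 and Sc5d. It had 3799 and 4332 in WT mESCs and 824 and 901 at day 2. In KO it had 5077 and 5485, then 849 and 819, and in KO+Rescue 5513 and 7211, then 704 and 633. No mESC library came near a day 2 library, and the fall was 4.71-fold in WT, 6.32-fold in KO and 9.43-fold in KO+Rescue (log2 -2.23, -2.66 and -3.24, each ± 0.14 SE, with limma adjusted p of 6.95e-08, 9.84e-09 and 1.51e-09). In this series Ebp was thus the only one of the 19 sterol enzymes called lower in WT and in KO, and in KO+Rescue it was joined by Idi1.

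**Figure D2:**
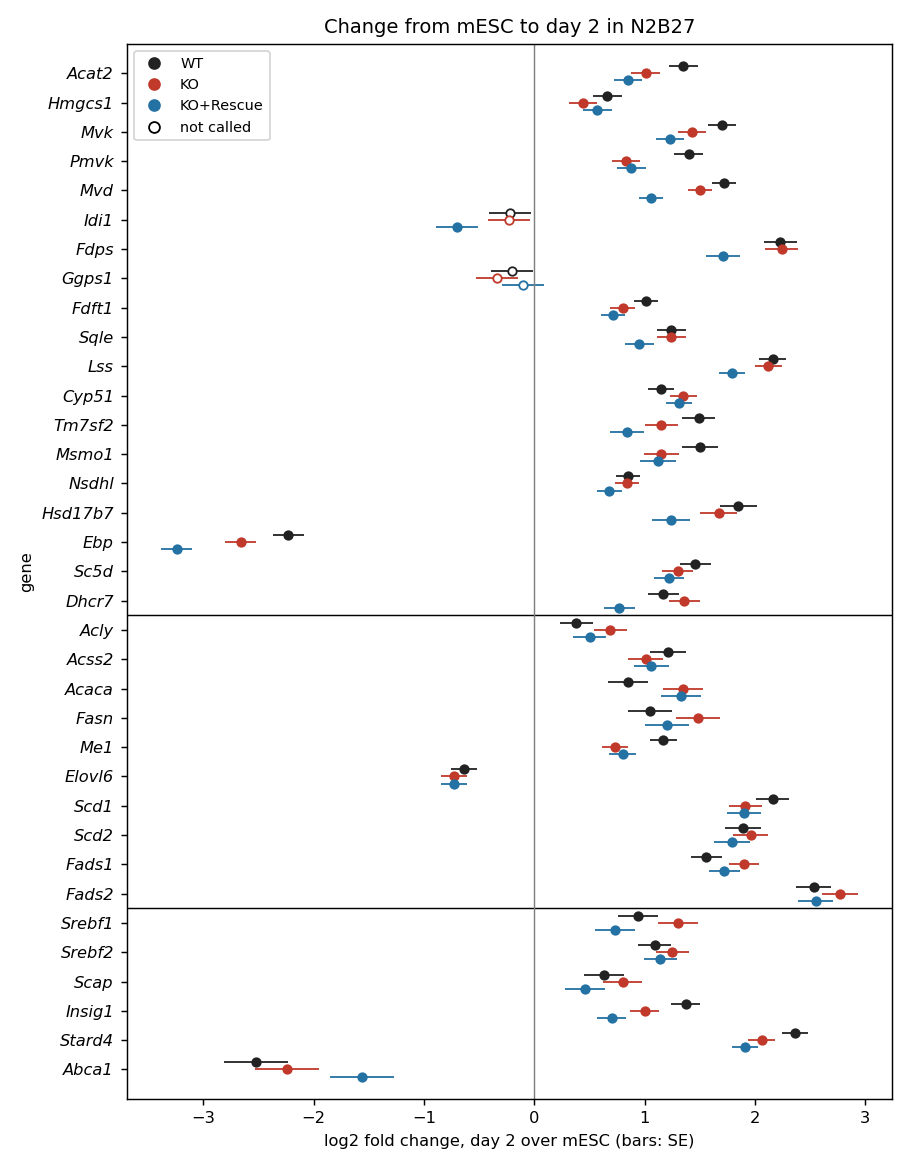
Fitted log2 change from mESC to day 2 (x axis) for each gene (y axis) in WT, KO and KO+Rescue, with bars for 1 SE and open circles for changes that did not pass the test. The filled points to the right lie between 0.38 and 2.77, and those of Ebp and Abca1 lie between -3.24 and -1.56.

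Among the fatty acid enzymes, the desaturases rose most. Fads2, the delta-6 desaturase that begins the synthesis of polyunsaturated fatty acids, had 1270 and 1022 in WT mESCs and 7103 and 6089 at day 2, 836 and 661 against 5156 and 4991 in KO, and 971 and 753 against 4927 and 5120 in KO+Rescue. The stages did not overlap, and the fold was 5.77, 6.82 and 5.87 (log2 2.53, 2.77 and 2.55, each ± 0.16 SE). Fads1, the delta-5 desaturase, had 1845 and 1530, then 5246 and 4660 in WT, a fold of 2.94. The stearoyl-CoA desaturases Scd1 and Scd2 had 2318 and 1871, then 10501 and 8237, and 9891 and 7693, then 36948 and 28491. Their folds in WT were 4.46 and 3.72, and since they are similar in sequence, reads could have been assigned to the wrong copy.

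Enzymes that supply carbon and reducing power, and those that build palmitate, rose less. Me1, the malic enzyme that yields NADPH, had 1418 and 1541 in WT mESCs and 3449 and 3212 at day 2, a fold of 2.25, and Acss2, which activates acetate, had 231 and 192, then 485 and 493, a fold of 2.31. Fasn, the fatty acid synthase, rose 2.07-fold in WT and Acaca, the acetyl-CoA carboxylase, 1.81-fold. In KO these folds were 2.79 and 2.55. The call of Fasn was lost in every genotype when the length and GC trend was removed, with log2 changes of 0.13, 0.13 and 0.03 left in WT, KO and KO+Rescue. Acly, the ATP citrate lyase, had the smallest rise of the class, 1.3-fold in WT (limma adjusted p 0.0467), and that call was lost under 6 of 12 alternatives, among them edgeR, each of the fits without WT mESC replicate B or WT day 2 replicate A, and the removal of the length and GC trend.

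Elovl6 fell, and its values are given here because it was the exception of its class, a choice made after they were seen. Elovl6 elongates palmitate to stearate. It had 12235 and 12541 in WT mESCs and 7900 and 7954 at day 2, 13494 and 13393 against 7711 and 8463 in KO, and 11953 and 10794 against 7421 and 6345 in KO+Rescue. The stages did not overlap, and it fell 1.56-fold, 1.66-fold and 1.66-fold (log2 -0.64, -0.73 and -0.73, each ± 0.12 SE). With equal library totals the fall in KO+Rescue did not pass the test.

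The RNA of the SREBPs, Scap and Insig1 rose with that of the enzymes before the length and GC trend was removed. Srebf2 had 5243 and 3971 in WT mESCs and 10737 and 8763 at day 2, and Srebf1 had 1400 and 974, then 2539 and 1979. The folds in WT were 2.13 and 1.92 (log2 1.09 ± 0.15 and 0.94 ± 0.18 SE). Insig1, itself a target of the SREBPs and their brake, had 3657 and 4006, then 9055 and 10756, a fold of 2.58 for WT, against 2 for KO and 1.62 for KO+Rescue. Srebf1's row overlaps Rai1. With the length and GC trend removed the log2 changes in WT were 0.23 for Srebf1, no longer called (limma adjusted p 0.0748), and 0.36 for Srebf2. Scap had 1037 and 833, then 1753 and 1175, a fold of 1.54 in WT that turned to a log2 change of -0.11 when the length and GC trend was removed. The log2 change of Scap turned in KO (-0.26) and KO+Rescue (-0.35, limma adjusted p 0.0127) too, and that of Srebf1 in KO+Rescue (-0.06).

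The transporters moved apart. Stard4, which carries cholesterol between membranes inside the cell, had 1108 and 1085 in WT mESCs and 5797 and 5507 at day 2, 956 and 1027 against 3947 and 4323 in KO, and 1364 and 1223 against 5234 and 4487 in KO+Rescue. Its fold was 5.15, 4.17 and 3.75 (log2 2.36, 2.06 and 1.91, each ± 0.12 SE). Abca1, which exports cholesterol and is induced by the oxysterol receptors LXR, had 338 and 301 in WT mESCs and 66.6 and 44.9 at day 2, and it fell 5.74-fold (log2 -2.52 ± 0.29 SE, limma adjusted p 1.16e-05). In KO it had 198 and 146, then 28.8 and 42.7, and in KO+Rescue 138 and 139, then 54 and 39.5, falls of 4.74-fold and 2.96-fold. Stard4 lay higher and Abca1 lower in every day 2 library than in any mESC library.

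Levels between genes were compared as normalised counts per kilobase of transcript. In WT mESCs the most abundant of the 35 were Fdps at 5234 and Acly at 5211, followed by Hmgcs1 at 3018, and the least abundant were Hsd17b7 at 83.8, Acss2 at 70.4 and Abca1 at 31.1. At day 2 Fdps reached 24801 in WT, ahead of Acly at 6763, Msmo1 at 6549 and Scd2 at 5998. The libraries of Fdps and Acly overlapped in WT mESCs once divided by length, and those of Acly, Msmo1 and Scd2 overlapped at day 2.

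**Figure D3:**
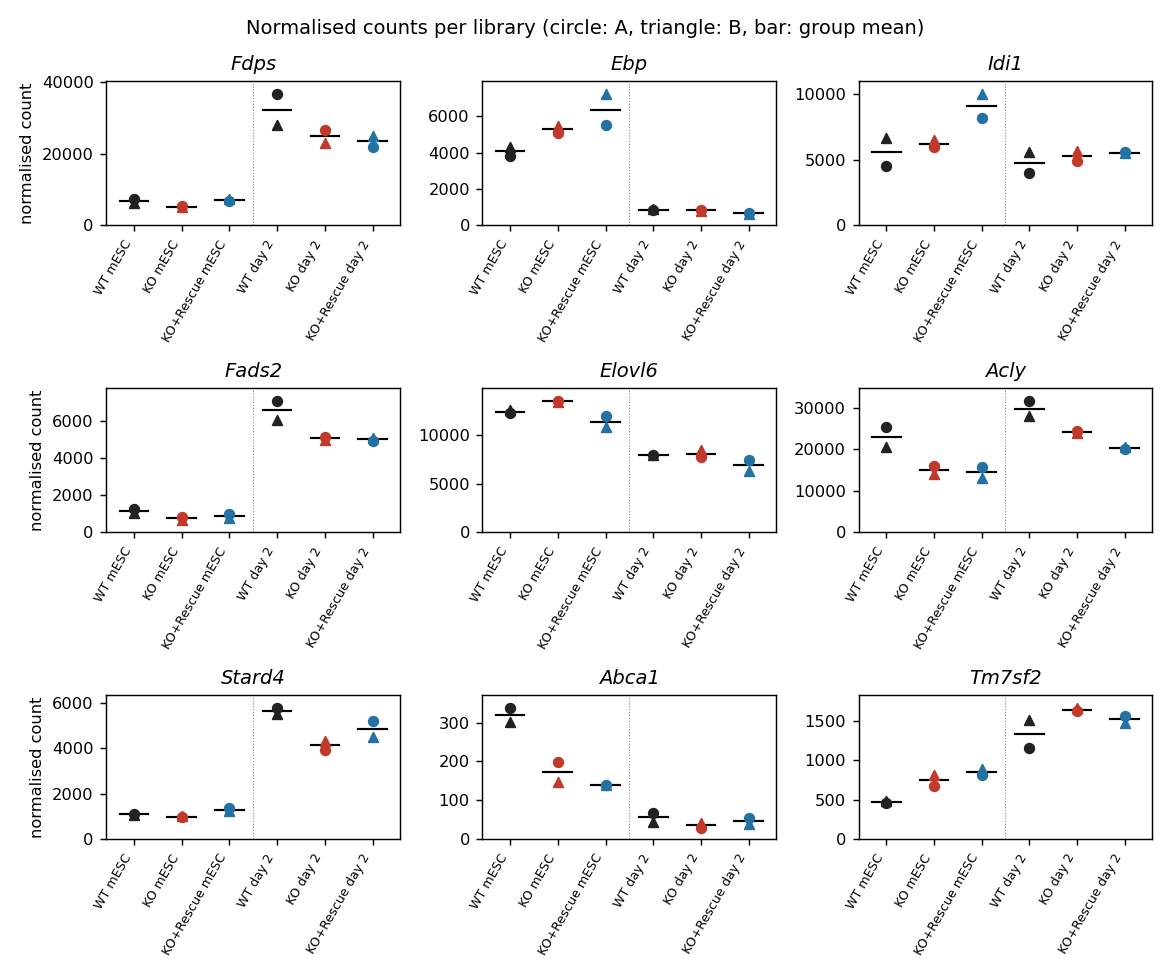
Normalised counts (y axis, from 0) of 9 genes in the 12 libraries, circles being replicate A and triangles B, with a bar at the mean of each pair; the dotted line parts mESC from day 2. Fdps, Fads2 and Stard4 lie higher at day 2 in every genotype, Ebp, Elovl6 and Abca1 lower, and the KO and KO+Rescue points of Acly and Abca1 lie below those of WT in mESCs.

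The rest of lipid metabolism was read from lists around the 2 pathways. Beside the counts below, 26.6%, 31.4% and 29.2% of all genes tested were called higher at day 2 in WT, KO and KO+Rescue. Called lower were 25.3%, 28.7% and 29.1%. Genes of fatty acid oxidation, which runs opposite to synthesis, were mostly lower at day 2: in WT 10 of the 16 tested were called lower and 2 higher, with a median log2 change of -0.68, and in KO and KO+Rescue 10 were lower and 3 higher. Cpt1a, the gate for entry of long fatty acids into mitochondria, fell from 2004 ± 386 to 180 ± 29.5 normalised counts in WT (SD, n = 2 each), an 11.1-fold fall, and 14.6-fold in KO and 18.8-fold in KO+Rescue. Slc25a20, the carnitine carrier, fell 9.32-fold and Acadm, the medium-chain dehydrogenase, 3.97-fold in WT. Among genes of fatty acid elongation, activation and lipogenic control, 11 of 23 were higher and 2 lower in WT. Those with the smallest adjusted p were Acsl5 (3.57-fold) and Acsl4 (3.72-fold), which activate fatty acids, and Aacs (3.66-fold), which makes acetoacetyl-CoA for lipid synthesis. Among genes of sterol efflux, storage and lipoprotein uptake, 12 of 18 were higher and 3 lower in WT. The counts in KO and KO+Rescue were 16 and 13 higher and 4 and 3 lower for the former list, and 11 and 11 higher and 2 and 3 lower for the latter. The lipoprotein receptors Vldlr and Lrp2 rose 28.8-fold and 9.37-fold, whereas Apoe, the apolipoprotein, fell from 48821 ± 601 to 13111 ± 661 (3.73-fold). In WT mESCs Vldlr had only 11.3 ± 4.21 and Lrp2 287 ± 75.1, so the fold of Vldlr starts from a low count. Among genes of SREBP processing and turnover, Ube2g2, a ubiquitin-conjugating enzyme, rose 1.73-fold in WT, whereas Insig2, the paralog of Insig1, fell 1.5-fold. The users of isoprenoids had 1 of 9 higher and 1 lower in WT, Coq2 (1.41-fold) and Fntb (2.64-fold lower), and of 5 fatty acid uptake genes tested Fabp3 fell 6.06-fold and Slc27a4 1.49-fold.

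Sterol and fatty acid enzymes were then compared with each other. In the stage contrast the median log2 change of the sterol enzymes minus that of the fatty acid enzymes was 0.16 for WT, -0.27 for KO and -0.38 for KO+Rescue. The spread of this difference between the libraries of a group was 0.16 (SD pooled over the groups), but it was uneven. Relative to the WT mESC mean, the libraries had -0.2 and 0.2 in WT mESCs and -0.01 and 0.27 in WT at day 2. In KO they had 0.44 and 0.57, then 0.28 and 0.17, and in KO+Rescue 0.33 and 0.49, then 0.36 and 0.31. The stage difference in KO and KO+Rescue became 0.3 and 0.14 once the length and GC trend was removed. In WT it was -0.06 without WT mESC replicate A. The order of the 2 classes in the stage contrast therefore turned with these choices.

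The 2 classes differed in their change between KO and WT mESCs. The median log2 change of KO against WT was 0.12 for the sterol enzymes and -0.4 for the fatty acid enzymes, a difference of 0.53, against -0.04 for all genes. With equal library totals in place of the size factors these medians were -0.09 and -0.62, so the sign for the sterol enzymes turned with the scaling. With the length and GC trend removed they were 0.07 and -0.1. Of the 35 genes, 5 were called, against 9.48% of all genes tested: 1 sterol enzyme was higher and 4 fatty acid enzymes were lower, where 3.23% of all genes were called higher and 6.26% lower. With equal library totals, 7 were lower and none higher. That scaling moves the median log2 change of all genes by -0.21 here, and the share of all genes called under it is not given. In 17 of the 35 both KO libraries lay below both WT libraries and in 10 above, against 31.6% and 27.3% of all genes tested.

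Tm7sf2, a reductase that acts on the double bond at carbon 14, had 458 and 480 in WT and 673 and 820 in KO mESCs, a fold of 1.58 (log2 0.66 ± 0.15 SE, limma adjusted p 0.0182). Its row overlaps Vps51 in the annotation. Acly had 25394 and 20568 in WT and 15956 and 14103 in KO, a 1.52-fold fall (log2 -0.61 ± 0.15, limma adjusted p 0.0244). The 2 groups did not overlap for either gene. Acaca, whose row overlaps Tada2a, had 3943 and 2700 in WT and 2195 and 1806 in KO, a 1.64-fold fall (limma adjusted p 0.0302). Fads1 had 1845 and 1530, then 1219 and 1093, and Fads2 1270 and 1022, then 836 and 661, falls of 1.46-fold and 1.53-fold (limma adjusted p 0.0279 and 0.033). In all 3 both KO libraries lay below both WT libraries. Fasn, at a log2 change of -0.55 ± 0.2, Dhcr7 at -0.48 ± 0.14 and Abca1 at -0.9 ± 0.29 did not pass (limma adjusted p 0.0969, 0.0507 and 0.0671).

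These calls rested on 2 libraries in each group, and each was lost in some fits without a library. The share of all genes called in those fits is not given. The difference between the 2 classes was 0.16 without WT mESC replicate A and 0.7 without WT mESC replicate B. Per library, the median sterol value minus the median fatty acid value, relative to the WT mESC mean, was -0.2 and 0.2 for WT mESCs, 0.44 and 0.57 for KO, and 0.33 and 0.49 for KO+Rescue.

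Transcript length moved with the same contrast. Over 14016 genes with a length (91.4% of those tested), the log2 change of KO against WT mESCs had a Spearman rho of -0.24 with length, a description across genes, and its median was 0.2 for transcripts of up to 1995 bases and -0.17 for those of 4980.25 bases or more, the outer quartiles of length. The median transcript was 2807 bases for the sterol enzymes and 4717 for the fatty acid enzymes. With the length and GC trend removed from each library the difference between the classes was 0.17, and 9 of the 35 genes were called. These were 4 sterol enzymes higher and 1 lower, 3 fatty acid enzymes lower and 1 regulator higher. The share of all genes called with the trend removed is not given. At day 2 rho was -0.06.

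**Figure D4:**
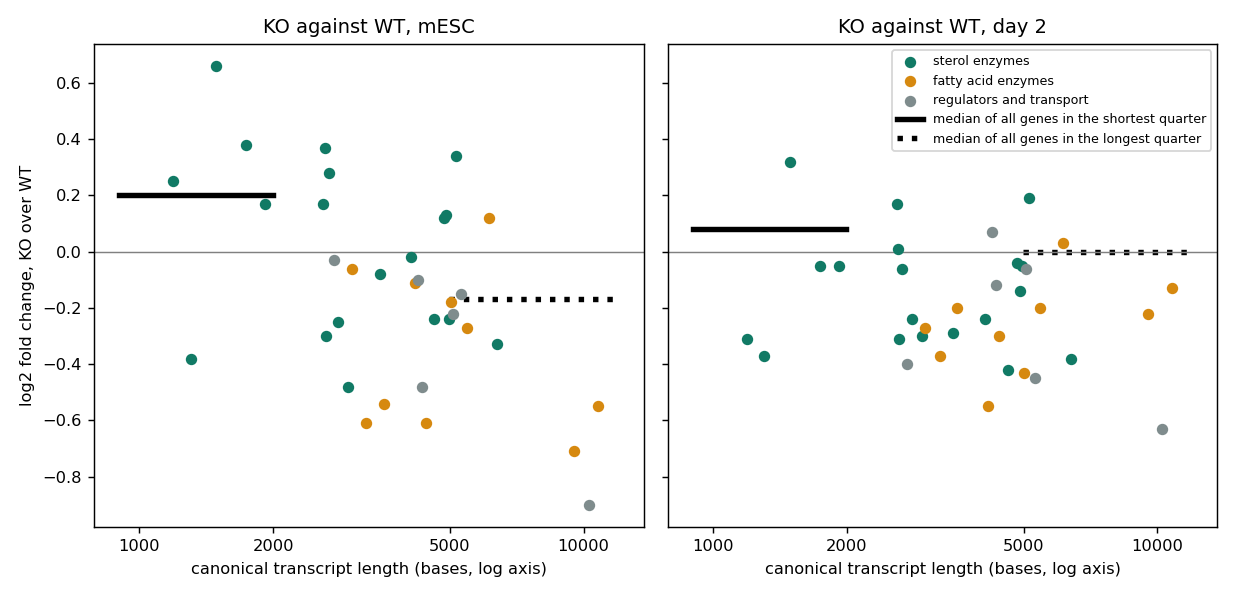
Fitted log2 change of KO over WT (y axis) against canonical transcript length in bases (x axis, log scale) for the 35 genes, in mESCs on the left and at day 2 on the right, with bars for the median of all genes in the shortest and longest quartiles of length. On the left the fatty acid enzymes lie mostly below 0 and to the right of many sterol enzymes, and the 2 bars lie at 0.2 and -0.17; on the right they lie at 0.08 and 0.

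At day 2, 1 of the 35 genes passed the test between KO and WT. Me1 had 3449 and 3212 in WT and 2314 and 2224 in KO, with no overlap, a 1.47-fold fall (log2 -0.55 ± 0.12 SE, limma adjusted p 0.0167). Of the 35, edgeR called 1 and DESeq2 4, all lower. Over all 15341 genes edgeR called 361 higher and 682 lower, and DESeq2 490 and 938. With limma Me1 was the only one of the 35 called, against 5.21% of all genes tested (1.57% higher and 3.64% lower). The call was lost without WT day 2 replicate A and without either KO day 2 library. The log2 change was below 0 for 29 of the 35, with a median of -0.14 for sterol and -0.24 for fatty acid enzymes against 0.02 for all genes, for which 7334 of 15341 changes lay below 0. These medians were -0.06 and -0.19 with the length and GC trend removed, and -0.25 and -0.35 with equal library totals. Cell state markers moved with this contrast. The summed neuroectoderm count was 5983 to 8704 in WT and 10803 to 10933 in KO, with Sox1, Pax6 and Otx2 called higher. The summed count of the 10 pluripotency genes was 53608 to 70871 in WT and 84205 to 91933 in KO. The median log2 change of these 10 was -0.18, with Nanog called higher and Esrrb and Klf2 lower. The part of these markers in the result was not tested. At an unadjusted p under 0.05, 12 were lower and none higher, against 10.9% and 7.52% of all genes tested. In 18 of the 35 both KO libraries lay below both WT libraries and in 1 above, against 24.6% and 23.2% of all genes tested. Stard4, with 5797 and 5507 in WT and 3947 and 4323 in KO, did not pass the test (log2 -0.45 ± 0.12, limma adjusted p 0.0513), and Insig1 had a log2 change of -0.4 ± 0.13 (limma adjusted p 0.0946).

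**Figure D5:**
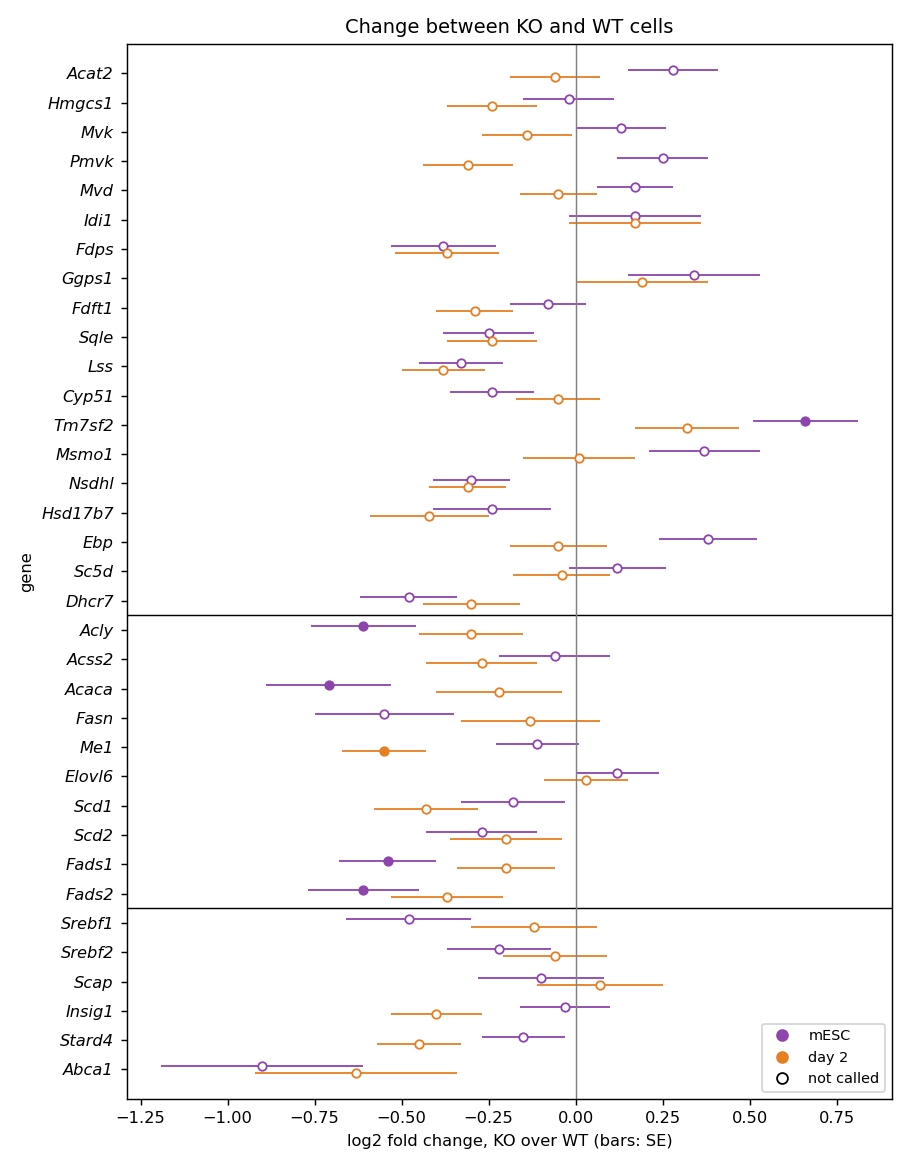
Fitted log2 change of KO over WT (x axis) for each gene (y axis) in mESCs and at day 2, with bars for 1 SE and open circles for changes that did not pass the test. In mESCs Tm7sf2 lies to the right and Acly, Acaca, Fads1 and Fads2 to the left as filled points, and at day 2 the single filled point is Me1.

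The interaction of KO and stage, which asks whether the KO effect differed between the stages, was called in none of the 35 genes by limma, edgeR or DESeq2, against 1.13% of all genes tested by limma. At an unadjusted p under 0.05 there were 2, Pmvk (log2 -0.57 ± 0.19) and Me1 (-0.44 ± 0.17), with limma adjusted p of 0.196 and 0.276, against 12.9% of all genes tested. A difference between the stages in the effect of KO on these genes was thus not shown.

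Around the 2 pathways, KO mESCs had lower values in a few genes. Mid1ip1, which aids the assembly of acetyl-CoA carboxylase, fell 1.81-fold against WT, Mlxipl, which encodes the carbohydrate-responsive factor ChREBP, fell from 43.8 ± 20.2 to 8.64 ± 1.13, and Elovl4 fell 1.97-fold. These were the 3 called of 23 genes of elongation, activation and lipogenic control. Of all genes tested, 6.26% were called lower and 3.23% higher. Of 18 genes of sterol efflux, storage and uptake, Abcg1 (3.31-fold), Lipa (1.78-fold) and Lrp8 (1.74-fold) were lower, and of 16 oxidation genes Slc25a20 was higher (1.68-fold). At day 2 Thrsp (3.85-fold), Acsl5 (1.41-fold), Cpt1a (1.65-fold) and Nceh1 (1.49-fold) were lower in KO, and Lrp1, another lipoprotein receptor, was higher (1.84-fold). These were 2 of the 23, 1 of the 16 oxidation genes, and 1 lower and 1 higher of the 18. Of all genes tested at day 2, 3.64% were called lower and 1.57% higher.

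Re-expression of PROSER1 was compared with KO and with WT. These contrasts share the KO or WT libraries with those above, so their values are set side by side without a test of their relation. Against KO, none of the 35 genes was called at either stage by limma, edgeR or DESeq2, where limma called 1.51% of all genes tested in mESCs and 1.83% at day 2. In mESCs 30 of the 35 log2 changes lay above 0, as did 8246 of the 15341 over all genes, with a median of 0.23 for sterol and 0.19 for fatty acid enzymes against 0.03 for all genes (0.11 and 0.07 with equal library totals), and at an unadjusted p under 0.05 there were 9 higher and 1 lower, against 6.46% and 6.90% of all genes tested. In 24 of the 35 both KO+Rescue libraries lay above both KO libraries, against 23.4% of all genes tested. Idi1 had the largest of these changes (log2 0.54 ± 0.19, limma adjusted p 0.221), followed by Fdps at 0.45 ± 0.15 and Hsd17b7 at 0.43 ± 0.17. At day 2 the median of the 35 changes was 0, and 4 had an unadjusted p under 0.05, 2 of them higher, against 17.1% of all genes tested.

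Against WT, KO+Rescue mESCs differed in 9 of the 35 genes, against 18.2% of all genes tested. Higher were 6, all sterol enzymes, and 3 were lower, where 9.15% and 9.04% of all genes were called. Msmo1, the methylsterol oxidase, had 5150 and 7039 in WT and 9501 and 10420 in KO+Rescue, a fold of 1.65 (log2 0.72 ± 0.16 SE, limma adjusted p 0.0128). Tm7sf2, with 812 and 892 in KO+Rescue, was 1.81-fold higher than in WT, and Ebp and Idi1 were 1.55-fold and 1.64-fold higher. For each of these 4 the KO+Rescue libraries lay above the WT libraries. Mvd and Acat2 were 1.43-fold and 1.33-fold higher, and the call of Acat2 was lost under 7 of 12 alternatives, among them edgeR, no filter and leaving out either KO+Rescue library. Acly, with 15727 and 13218 in KO+Rescue, was 1.59-fold lower, Acaca 1.61-fold lower, and Abca1, with 138 and 139 against 338 and 301, 2.29-fold lower (log2 -1.2 ± 0.29, limma adjusted p 0.0194).

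The higher calls depended on the scaling. With equal library totals in place of the size factors, 1 sterol enzyme was higher and 8 of the 35 genes were lower than in WT mESCs. The median log2 change of the sterol enzymes turned from 0.2 to -0.13. The share of all genes called under that scaling is not given. That change of scale moves the median log2 change of all genes by -0.32 in this contrast and by -0.21 in KO against WT mESCs, by -0.11 and -0.2 in KO and KO+Rescue against WT at day 2, by -0.12 in KO+Rescue against KO mESCs, and by 0.23, 0.34 and 0.37 in the stage contrasts of WT, KO and KO+Rescue. Each call of KO+Rescue against WT mESCs was lost in some fits without a library. The share of all genes called in those fits is not given. Over those fits the sterol minus fatty acid median ranged from 0.33 to 0.62.

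At day 2, KO+Rescue cells had 3 genes called lower and none higher against WT, against 7.20% and 3.90% of all genes tested. Dhcr7, the last reductase of cholesterol synthesis, had 3805 and 3334 in WT and 2250 and 2381 in KO+Rescue, a 1.54-fold fall (log2 -0.62 ± 0.14 SE, limma adjusted p 0.0168). Lss and Acly were 1.34-fold and 1.46-fold lower (limma adjusted p 0.0464 and 0.0345). For all 3 both KO+Rescue libraries lay below both WT libraries, as they did for 22 of the 35 genes against 32.4% of all genes tested. Each of the 3 calls was lost in some fits without a library. The share of all genes called in those fits is not given. With equal library totals 10 were lower and none higher. That scaling moves the median log2 change of all genes by -0.2 here, and the share of all genes called under it is not given. The interaction of stage with KO+Rescue against KO was called in none of the 35 by limma, edgeR or DESeq2, against 0.0847% of all genes called by limma. At an unadjusted p under 0.05 there were 5 of the 35, against 9.24% of all genes tested.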

How the data were processed

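RNA was measured by paired-end, strand-specific RNA-seq in 12 libraries. The authors trimmed reads with Trimmomatic, aligned them with STAR, counted read pairs per gene of mm10 with featureCounts, removed reads of the Y chromosome, and deposited a signal, the count divided by the DESeq2 size factor of the library; versions are not given in the sources used here. Whole reads could be recovered for 100% of the values (tolerance 0.001 read). The log2 of the deposited value plus 1 was fitted with limma 3.58.1 in R 4.3.3 to the means of the 6 groups, with a trend of the variance, over the 15341 genes with a mean of at least 10. A gene was called at a two-sided adjusted p under 0.05 (Benjamini and Hochberg over all genes tested), and a fold change on this scale understates the change of low genes. The study used DESeq2 on counts; here DESeq2 1.42.0 and edgeR 4.0.16 on the recovered reads were alternatives, beside a pseudocount of 0.5, no filter, equal library totals, a fit of only the compared groups, a block for the replicate letter and leaving out each library. Removal of a trend with transcript length and GC content within each library was added after the data were seen. The 35 genes and the other lists were chosen with earlier results of these data known. Named genes were those with the smallest adjusted p in each class and their paralogs, plus exceptions named as such. A gene of the SREBP processing list is not reported here. The calculation was tested on simulated data. Transcript lengths came from GENCODE on GRCm39 by symbol, and promoters from RefSeq on GRCm38.p6.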

Additional observations from a re-analysis of the deposited data

How the results depend on the processing

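The stage counts stayed between 29 and 34 of the 35 genes under the alternatives. Of the 118 calls of single genes, 118 held under DESeq2, the pseudocount of 0.5 and the block on the replicate letter, 115 under edgeR, 110 with equal totals, 108 without the filter, 99 in fits of only the compared groups and 106 without the length and GC trend, where 4 turned: Scap at day 2 against mESC (log2 -0.11, -0.26 and -0.35 in WT, KO and KO+Rescue) and Srebf1 in KO+Rescue (-0.06). Leaving out a library kept 415 of 472, with the lone library of a group assumed to vary like the other groups. The counts of called genes moved as follows, and the cause was not tested. The share of all genes called under each alternative is not set beside them, so they show only how the calls moved. For KO against WT mESCs (5) there were 2 without the filter, 8 with DESeq2, 0 with only the compared groups, 9 without the length and GC trend, and 0 to 9 when leaving out a library. For KO against WT at day 2 (1) there were 4 with DESeq2, 0 with only the compared groups, 6 without the trend, and 0 to 1 when leaving out a library. For KO+Rescue against KO (0) there were 4 without the trend in mESCs and 5 with only the compared groups at day 2, and the interaction of KO+Rescue against KO with stage (0) gave 1 without the trend. For KO+Rescue against WT mESCs (9) there were 1 with only the compared groups, 15 without the trend, and 0 to 13 when leaving out a library. For KO+Rescue against WT at day 2 (3) there were 1 without the filter, 10 with equal totals, 8 with DESeq2, 0 with only the compared groups, 6 without the trend, and 0 to 7 when leaving out a library.

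The sterol minus fatty acid median ranged over the fits without a library from 0.16 to 0.7 for KO against WT mESCs, 0.33 to 0.62 for KO+Rescue against WT mESCs, -0.1 to 0.16 for KO+Rescue against WT at day 2, -0.06 to 0.31 for the stage in WT, -0.38 to -0.1 for the stage in KO, and -0.58 to -0.14 for the interaction of KO with stage (-0.34). Without the length and GC trend it was 0.17 and 0.27 for KO and KO+Rescue against WT mESCs, 0.3 and 0.14 for the stage in KO and KO+Rescue, and -0.14 for that interaction.

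The replicate letters were not taken as pairing the samples. The A minus B differences correlated at -0.05 to 0.41 over 15 pairs of groups, above 0.1 in 6. These 6 were the pairs among the mESC groups and WT day 2 (0.12 to 0.41), so the letters went together there. With the letter as a block 14 genes were called in KO against WT mESCs and 5 in KO against WT at day 2. There were 2 in KO+Rescue against KO mESCs and 11 in KO+Rescue against WT at day 2. The share of all genes called with the block is not given.

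With 2 libraries a group, small changes of the less abundant genes such as Abca1 carry a larger error (SE 0.29 on the log2 scale) than those of abundant ones.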
